A study of Mus musculus with 12 samples.

Results

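The S100 genes described here are *S100a1*, *S100a4*, *S100a6*, *S100a8*, *S100a9*, *S100a10*, *S100a11* and *S100a13*. They were chosen by gene name, and all 8 were found among the 40760 genes of the count table and passed the filter on low counts, which kept 17418 genes. RNA was measured by bulk RNA-seq in Pdgfra+ (CD140a+) cells, a lung mesenchymal fraction, sorted by flow cytometry from lungs of male mice. The 12 libraries comprised 3 each of WT mice given vehicle (WT vehicle), Pear1-/- mice given vehicle (Pear1-/- vehicle), WT mice given bleomycin (WT bleo) and Pear1-/- mice given bleomycin (Pear1-/- bleo). Bleomycin is a DNA-damaging drug that scars the lung when given into the airway, and PEAR1 is a cell surface receptor. The Pear1-/- mice carry a knockout-first allele, in which a splice-trapping cassette sits in an intron of the gene. The labels give neither age, dose nor interval. The general methods describe young adult mice on a C57BL/6 background and intratracheal aerosol, and the number of mice behind a library is not stated, so the p-values measure only the spread between libraries. The comparisons ask how bleomycin changed these cells in each genotype and how the genotypes differed with and without it.

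S100 proteins are small calcium-binding proteins with EF-hand motifs that work as dimers. Inside the cell they bind target proteins when calcium rises, annexins and cytoskeletal proteins among them, and several are also released and then act on receptors such as RAGE, the product of *Ager*, and TLR4. S100A8 and S100A9 form calprotectin, which is abundant in neutrophils and monocytes. S100A4 is also called fibroblast-specific protein 1 and is used as a marker of fibroblasts, although macrophages express it too.

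Between 6702948 and 10447101 reads were counted per library, and a floor of 3 counts corresponded to between 0.287 and 0.448 CPM (counts scaled to the same library total), which covers counting error only. All 8 genes lay above that floor in every library. One library stood apart. Pairs of libraries were compared by a chi-square of their counts divided by its degrees of freedom, a value near 1 when they differ by sampling noise only. WT vehicle replicates 1 and 3 gave 1.68. Replicate 2 gave 25.2 against replicate 1 and 26 against replicate 3, and pairs within the remaining groups gave between 1.37 and 5.46. For each of the 8 S100 genes the normalized count of WT vehicle replicate 2 lay within the range of the 3 Pear1-/- vehicle libraries. *Pear1* itself had between 518.6 and 576 normalized counts in WT vehicle and between 500.9 and 546.8 in Pear1-/- vehicle (log2 fold change -0.08, standard error 0.077, adjusted p = 0.49), so its total count did not tell these labels apart, and the genotype of a library is its label. After bleomycin it was higher in the libraries labelled Pear1-/- than in WT (0.48, adjusted p = 7.54e-05). The fibroblast marker *Pdgfra* was present in all libraries, between 1338 and 4802 normalized counts, and so was the leukocyte marker *Ptprc*, between 3010 and 7727.

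All 8 genes lie on mouse chromosome 3 (GRCm38, gene models of GENCODE M21) within 3.05 Mb. Of the 8, 6 lie close together, in the order *S100a1*, *S100a13*, *S100a4*, *S100a6*, *S100a8* and *S100a9*, and *S100a11* and *S100a10* lie at the far end. *S100a1* (chr3:90511034-90514392, minus strand) and *S100a13* (chr3:90514435-90524581, plus strand) are divergent neighbours with 42 bases between their starts. *S100a8* (chr3:90668978-90670035, plus strand) and *S100a9* (chr3:90692632-90695721, minus strand) are 22.6 kb apart. *S100a4* (chr3:90603771-90606045), *S100a6* (chr3:90612882-90624181), *S100a11* (chr3:93520488-93526287) and *S100a10* (chr3:93555080-93564643) are on the plus strand. In GENCODE M21 a gene model on the same strand, *Gm42674*, shares 302 of the 584 exonic bases of *S100a4*. How reads in shared bases were counted is not given in the sources used here, so the level of *S100a4* is uncertain.

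The sequences upstream of the starts are shown for *S100a8*, *S100a9* and *S100a4*, which changed most, for *S100a11*, the highest per kb of exons after bleomycin, and for the stretch that *S100a1* and *S100a13* share. They come from RefSeq (GRCm38.p6), whose table held 7 of the 8 genes, each with 250 bases before the start, and are cut to the bases that no GENCODE M21 exon covers. Capitals mark matches, on either strand, to an AP-1 motif (TGANTCA), a C/EBP motif (TTNNGNAA) or TATAAA, none of which overlapped another. All are written 5′ to 3′ on the strand of the gene named first:
S100a8 (chr3:90668821-90668977, plus strand): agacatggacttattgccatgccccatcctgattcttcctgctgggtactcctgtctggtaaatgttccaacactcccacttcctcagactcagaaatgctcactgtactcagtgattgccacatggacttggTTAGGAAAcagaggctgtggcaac
S100a9 (chr3:90695722-90695971, minus strand): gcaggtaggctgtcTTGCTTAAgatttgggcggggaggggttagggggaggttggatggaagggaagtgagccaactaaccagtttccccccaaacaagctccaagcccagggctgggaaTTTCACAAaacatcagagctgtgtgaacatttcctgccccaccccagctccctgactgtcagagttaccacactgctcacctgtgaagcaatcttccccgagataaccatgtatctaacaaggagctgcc
S100a4 (chr3:90603520-90603769, plus strand): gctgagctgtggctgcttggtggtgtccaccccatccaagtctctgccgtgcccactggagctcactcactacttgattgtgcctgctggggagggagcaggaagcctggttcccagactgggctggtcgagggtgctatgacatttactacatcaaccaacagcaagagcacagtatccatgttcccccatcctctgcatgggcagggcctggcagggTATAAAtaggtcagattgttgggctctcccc
S100a11 (chr3:93520246-93520487, plus strand): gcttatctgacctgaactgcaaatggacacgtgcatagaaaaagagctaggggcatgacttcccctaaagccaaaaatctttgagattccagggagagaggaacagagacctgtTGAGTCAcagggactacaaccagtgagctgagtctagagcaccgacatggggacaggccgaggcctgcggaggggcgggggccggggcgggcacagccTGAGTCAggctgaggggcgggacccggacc
S100a13 and S100a1, the whole stretch between their starts (chr3:90514393-90514434, plus strand): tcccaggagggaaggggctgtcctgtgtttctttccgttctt

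In the windows of 250 bases, the C/EBP motif was found in *S100a8* and *S100a9*, 2 of the 7 genes, and in 36.8% of all 32851 RefSeq promoters of that length. The AP-1 motif was found in *S100a11* alone among the 7 and in 6.75% of all promoters. TATAAA began 31 bases before the start of *S100a4* and 30 bases before that of *S100a8*, where the bases are not printed because an annotated exon covers them, and was found in 12.4% of all promoters. A match describes the letters only.

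Levels between genes were compared as CPM per kb of exons. In Pear1-/- vehicle *S100a9* was highest at 1429 ± 179 CPM per kb (SD, n = 3), followed by *S100a8* at 1178 ± 171, and the ranges of these neighbours overlapped. *S100a11* came next at 388.3 ± 38, then *S100a10* at 184 ± 11.2 and *S100a6* at 179.6 ± 21, whose ranges overlapped, then *S100a1* at 66.1 ± 11.1 and *S100a13* at 49.4 ± 3, and *S100a4* was lowest at 2.42 ± 0.45. In WT bleo the order was *S100a11* at 430.2 ± 14.4 CPM per kb, *S100a6* at 177.5 ± 4.2, *S100a10* at 161.3 ± 5.01, *S100a9* at 108.8 ± 7.08, *S100a1* at 82.4 ± 4.69, *S100a8* at 71.2 ± 6.45, *S100a13* at 63 ± 4.2 and *S100a4* at 13.6 ± 1.44. Of these neighbours only *S100a8* and *S100a13* had overlapping ranges. Pear1-/- bleo kept *S100a11* first, at 662.8 ± 13.1 CPM per kb, and *S100a4* last, at 22.8 ± 2.45. *S100a8* and *S100a9* together took 41.4%, 67.1% and 43.5% of the reads of the 8 genes in WT vehicle replicates 1, 2 and 3, and between 66.6% and 68.5% in Pear1-/- vehicle. After bleomycin they took between 11.4% and 12.8% in WT and between 13.5% and 14.2% in Pear1-/-.

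**Figure D1:**
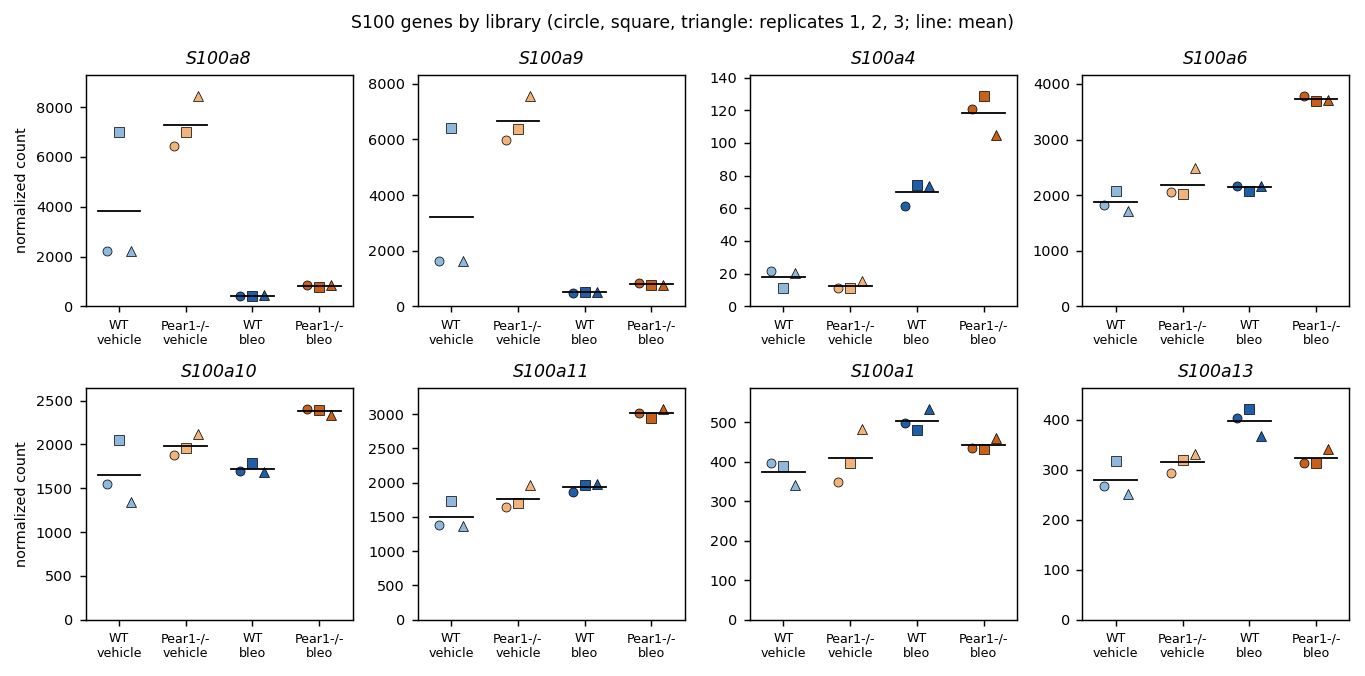
Normalized count (linear axis from 0) of each S100 gene in each of the 12 libraries, by group, with the replicates as circle, square and triangle and the group mean as a line. *S100a8* and *S100a9* were lower in every bleo library than in every vehicle library, *S100a4* was higher, and WT vehicle replicate 2 (square) sat among the Pear1-/- vehicle libraries.

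Bleomycin lowered *S100a8* and *S100a9* and raised *S100a4* in both genotypes, and the other 5 genes changed by less. Between WT bleo and WT vehicle 5 of the 8 genes were higher and 2 lower by edgeR's quasi-likelihood test with Benjamini-Hochberg adjustment over all genes tested, called the test below, at an adjusted p under 0.05. The background was high: 67.9% of all 17418 genes passed, 31.4% higher and 36.5% lower. Of the 8 genes, 3 also differed by more than 2-fold, against 33.8% of all genes. The median log2 fold change of the 8 was 0.30, beside -0.07 over all genes. Between Pear1-/- bleo and Pear1-/- vehicle 4 were higher and 2 lower, where 62.2% of all genes passed (29.1% higher and 33.1% lower), and 3 differed by more than 2-fold, where 27.7% of all genes did. The median of the 8 was 0.19, beside -0.05 over all genes. Bleo and vehicle libraries did not overlap for 6 of the 8 genes in WT and for 6 in Pear1-/-, beside 68.7% and 70.9% of all genes. Without WT vehicle replicate 2, 6 of the 8 were higher and 2 lower in WT, where 76.4% of all genes passed, and 4 were higher and 2 lower in Pear1-/-, where 67.9% passed.

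**Figure D2:**
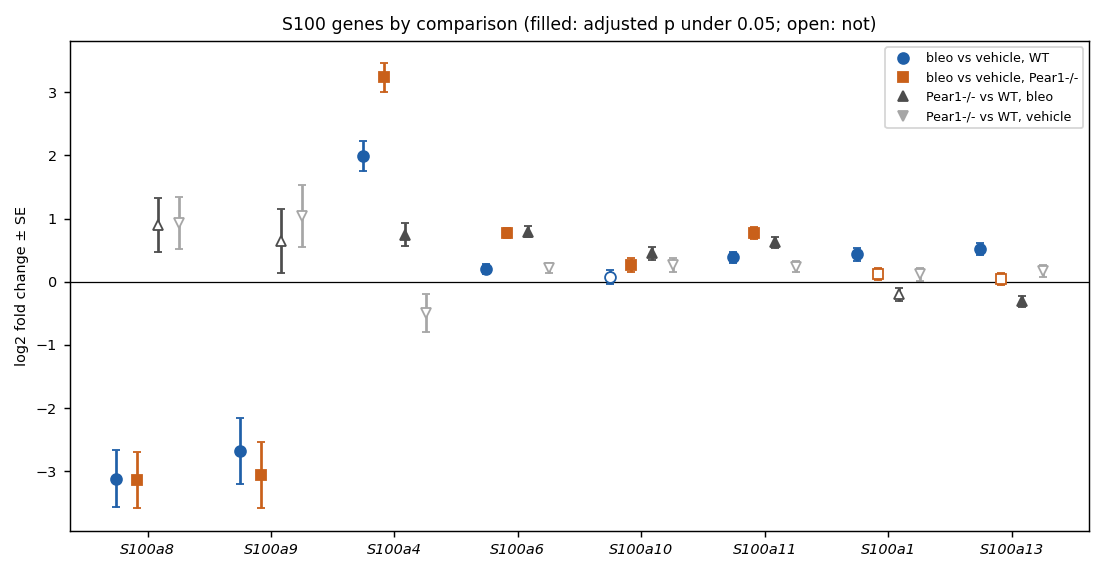
Log2 fold change with its standard error for each S100 gene in 4 comparisons; filled points passed the test at an adjusted p under 0.05 and open points did not. *S100a8* and *S100a9* lie between -3.15 and -2.68 in both bleo comparisons, *S100a4* lies at 1.99 and 3.24, and no point of the vehicle comparison is filled.

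*S100a8* encodes one chain of calprotectin. Its normalized counts were 2212, 6985 and 2240 in WT vehicle replicates 1 to 3 and 6417, 6978 and 8458 in Pear1-/- vehicle. In WT bleo they were 399.5, 430.4 and 475.8, and in Pear1-/- bleo 845.3, 775.4 and 841.7. All 6 bleo libraries lay below all 6 vehicle libraries, and WT vehicle held both the lowest and one of the highest vehicle values. *S100a8* was 8.76-fold lower in WT bleo than in WT vehicle (log2 fold change -3.12, standard error 0.45, adjusted p = 0.000285) and 8.87-fold lower in Pear1-/- bleo than in Pear1-/- vehicle (-3.15, standard error 0.45, adjusted p = 0.000303). Leaving out WT vehicle replicate 2 gave -2.28 in WT (standard error 0.11, adjusted p = 2.52e-10), and the fall was then larger in Pear1-/- (interaction -0.88, adjusted p = 0.000254), whereas with all libraries the interaction was -0.03 (adjusted p = 0.99).

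*S100a9* encodes the other chain and followed the same order. Its normalized counts were 1626, 6421 and 1627 in the WT vehicle libraries, with 5986, 6388 and 7576 in those of Pear1-/- vehicle, 463.8, 514 and 522.4 in those of WT bleo and 823.1, 770.2 and 781.6 in those of Pear1-/- bleo. The bleo libraries again lay below all vehicle libraries, and WT vehicle replicate 2 had 3.95 times the mean of the other 2 libraries of its group. *S100a9* fell in WT (log2 fold change -2.68, standard error 0.52, adjusted p = 0.00178) and in Pear1-/- (-3.07, standard error 0.53, adjusted p = 0.000952). Leaving out WT vehicle replicate 2 gave -1.63 in WT (adjusted p = 1.32e-17) and an interaction of -1.46 (adjusted p = 7.54e-13), against -0.39 (adjusted p = 0.705) with all libraries. The ratio of *S100a8* to *S100a9* reads was between 1.07 and 1.38 in vehicle libraries, between 0.837 and 0.911 in WT bleo and between 1.01 and 1.08 in Pear1-/- bleo.

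Both genes are known products of neutrophils, so a list of 12 neutrophil genes is given beside them. In bulk RNA, fewer cells of a type and less RNA per cell cannot be told apart. The summed level of the list was 286.9, 660.9 and 257.5 CPM in WT vehicle replicates 1 to 3 and between 628 and 714.1 in Pear1-/- vehicle. It was between 152.6 and 161.7 in WT bleo and between 222.1 and 231.9 in Pear1-/- bleo, so replicate 2 was the high library here too. In WT 8 of the 12 genes fell, where 36.5% of all genes did, and 4 did not pass (*Csf3r*, *Mpo*, *Mmp8* and *Lcn2*), with a median log2 fold change of -2.33 (-2.04 with *Elane*, the gene of neutrophil elastase, at the bound that 3 counts per library allow). In Pear1-/- 8 fell, where 33.1% of all genes did, and 4 did not pass (*Csf3r*, *Mmp8*, *Mmp9* and *Lcn2*), with a median of -2.98 (-2.42 with *Elane* at its bound). *Ly6g*, a defining neutrophil antigen, had 13, 57 and 16 reads in the WT vehicle libraries, with 56, 47 and 64 in those of Pear1-/- vehicle, 3, 3 and 3 in those of WT bleo and 11, 3 and 6 in those of Pear1-/- bleo. *Elane* had between 4 and 19 reads in vehicle libraries and 0 in all 6 bleo libraries, while *Csf3r*, the G-CSF receptor, had a log2 fold change of 0.21 in WT (adjusted p = 0.686) and -0.90 in Pear1-/- (adjusted p = 0.0964). There were between 8.6 and 11.4 *S100a8* reads per *Csf3r* read in vehicle libraries, between 0.906 and 1.05 in WT bleo and between 1.98 and 2.51 in Pear1-/- bleo. The summed level of a list of 12 monocyte and macrophage genes went the other way. It was between 1684 and 2108 CPM in vehicle libraries, between 11650 and 11820 in WT bleo and between 5053 and 5241 in Pear1-/- bleo. In each genotype 10 of the 12 genes were higher, where 31.4% (WT) and 29.1% (Pear1-/-) of all genes were. *Ly6c2* was lower (log2 fold change -1.04 in WT, adjusted p = 5.8e-09, and -1.21 in Pear1-/-, adjusted p = 8.24e-10), and *Marco* did not pass in either. *Lyz2*, the lysozyme gene, made up most of the bleo sums, with means of 8483 CPM in WT bleo and 3839 in Pear1-/- bleo. The part of these cells in the fall of *S100a8* and *S100a9* was not tested.

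**Figure D3:**
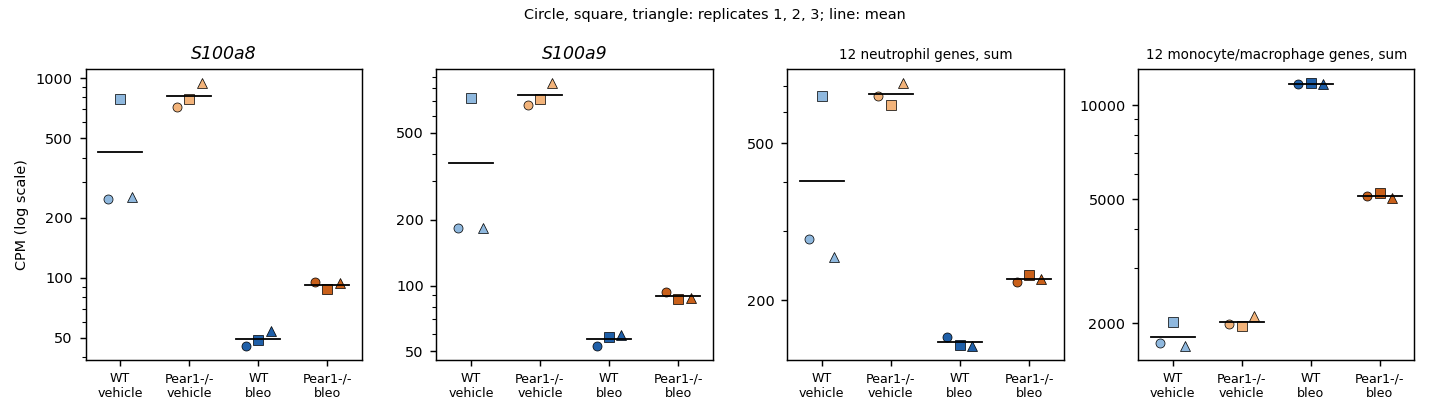
CPM on a log axis for *S100a8*, *S100a9* and the summed levels of 12 neutrophil genes and of 12 monocyte and macrophage genes in each library, with replicates as circle, square and triangle and the mean as a line. The first 3 panels show the same order of libraries by group, with WT vehicle replicate 2 high, and the last panel is highest in WT bleo.

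*S100a4*, whose protein binds non-muscle myosin and is used as a fibroblast marker, had the largest rise. Its normalized counts were 21.8, 11.2 and 20.6 in WT vehicle and 11.4, 11.1 and 15.3 in Pear1-/- vehicle. They were 61.5, 74.4 and 73.9 in WT bleo and 120.8, 128.9 and 104.8 in Pear1-/- bleo. The bleo libraries did not overlap the vehicle libraries, nor the Pear1-/- bleo libraries the WT bleo libraries. The counts behind the vehicle values were low, between 11 and 18 reads. *S100a4* was 3.92-fold higher in WT bleo than in WT vehicle (log2 fold change 1.99, standard error 0.23, adjusted p = 4.48e-07) and 9.39-fold higher in Pear1-/- bleo than in Pear1-/- vehicle (3.24, standard error 0.23, adjusted p = 4.83e-10). The rise was larger in Pear1-/- (interaction 1.24, standard error 0.35, adjusted p = 0.00965), and without WT vehicle replicate 2 the interaction was 1.43 (adjusted p = 0.00112). With bleomycin, 10 of the 12 monocyte and macrophage genes were higher in each genotype. Over all genes, 31.4% were higher in WT and 29.1% in Pear1-/-. Between Pear1-/- bleo and WT bleo 10 of the 12 monocyte and macrophage genes were lower and 2 did not pass, with a median log2 fold change of -1.18. In that comparison 24% of all genes were lower. Of 8 fibroblast genes, 2 rose and 6 fell with bleomycin in WT, where 31.4% of all genes rose and 36.5% fell. Among the 8, *Col1a1* was at 0.40, *Col3a1* at -0.20 and *Pdgfra* at -1.74. Between the bleo groups 5 of the 8 fibroblast genes were higher in Pear1-/-, where 22.1% of all genes were. The other 3 did not pass (*Dcn*, *Tcf21* and *Inmt*), and the median of the 8 was 0.71. With bleomycin in Pear1-/- the collagen genes *Col1a1* (2.18), *Col1a2* (1.53) and *Col3a1* (0.98) rose, and *Pdgfra* (-0.80), *Dcn* (-2.41), *Lum* (-1.33), *Tcf21* (-1.38) and *Inmt* (-2.95) fell. The part of either list's cells in the values of *S100a4* was not tested.

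*S100a6* encodes calcyclin, a partner of annexins and of the calcyclin-binding protein. It had 1817, 2083 and 1712 normalized counts in the WT vehicle libraries, with 2058, 2027 and 2480 in those of Pear1-/- vehicle, 2160, 2082 and 2171 in those of WT bleo and 3790, 3698 and 3716 in those of Pear1-/- bleo. The Pear1-/- bleo libraries stood above all others, and the remaining groups overlapped one another except WT vehicle replicates 1 and 3, which were lowest. *S100a6* rose in Pear1-/- (log2 fold change 0.78, standard error 0.083, adjusted p = 1.89e-07). In WT its log2 change was 0.20 (adjusted p = 0.037), a call that was lost in 10 of 20 alternative settings and was at an adjusted p of 0.103 with limma. The interaction was 0.57 (adjusted p = 0.000862), and 0.40 (adjusted p = 7.65e-05) without WT vehicle replicate 2.

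*S100a11*, whose protein binds annexin A1, showed a like order. It had 1378, 1736 and 1362 normalized counts in the WT vehicle libraries, with 1637, 1705 and 1962 in those of Pear1-/- vehicle, 1865, 1967 and 1976 in those of WT bleo and 3016, 2939 and 3076 in those of Pear1-/- bleo. The bleo libraries lay above the vehicle libraries within each genotype. *S100a11* rose in WT (log2 fold change 0.39, standard error 0.089, adjusted p = 0.000784) and in Pear1-/- (0.77, standard error 0.089, adjusted p = 4.43e-07). The interaction was 0.38 (adjusted p = 0.0211) with all libraries and 0.18 (adjusted p = 0.0728) without WT vehicle replicate 2.

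*S100a10*, whose protein pairs with annexin A2 at the plasma membrane, had the smallest change of the 8 in WT. It had 1554, 2046 and 1345 normalized counts in the WT vehicle libraries, with 1883, 1959 and 2119 in those of Pear1-/- vehicle, 1692, 1786 and 1689 in those of WT bleo and 2405, 2396 and 2332 in those of Pear1-/- bleo. WT vehicle and WT bleo overlapped, and the Pear1-/- bleo libraries were above all others. The WT value was 0.07 (standard error 0.11, adjusted p = 0.544), 0.33 without WT vehicle replicate 2 (adjusted p = 7.99e-06) and -0.05 without WT vehicle replicate 3 (adjusted p = 0.672). *S100a10* rose in Pear1-/- (0.26, standard error 0.11, adjusted p = 0.0369), but this call did not hold in 11 of 20 alternative settings, among them limma (adjusted p = 0.113) and the fit without each Pear1-/- bleo library in turn.

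*S100a1*, which binds the calcium pump and the ryanodine receptor in muscle, and *S100a13*, which takes part in the release of FGF1 and interleukin 1 alpha, start 42 bases apart and rose together in WT. *S100a1* had 396.6, 388.6 and 340 normalized counts in the WT vehicle libraries, with 347.5, 397.1 and 482.4 in those of Pear1-/- vehicle, 497.8, 479.3 and 533.5 in those of WT bleo and 434.2, 432.4 and 460.4 in those of Pear1-/- bleo. Its WT bleo libraries lay above all WT vehicle libraries (log2 fold change 0.44, standard error 0.10, adjusted p = 0.000886), whereas in Pear1-/- the groups overlapped (0.12, standard error 0.10, adjusted p = 0.309). *S100a13* had 268, 317.6 and 251.9 normalized counts in the WT vehicle libraries, with 293.5, 320.1 and 330.7 in those of Pear1-/- vehicle, 402.3, 421.2 and 367.5 in those of WT bleo and 313.4, 313.8 and 341.2 in those of Pear1-/- bleo. WT bleo was highest in each of its 3 libraries (log2 fold change 0.52 in WT, standard error 0.094, adjusted p = 8.68e-05), and the change in Pear1-/- was 0.04 (standard error 0.093, adjusted p = 0.717). The interaction passed the test for *S100a13* (-0.48, adjusted p = 0.00845; -0.67 and adjusted p = 1.15e-05 without WT vehicle replicate 2). For *S100a1* it was -0.32 (adjusted p = 0.0893), and -0.42 (adjusted p = 0.00504) without that library. The ratio of *S100a1* to *S100a13* reads was between 1.14 and 1.48 over all 12 libraries.

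Between Pear1-/- bleo and WT bleo 4 of the 8 genes were higher and 1 lower, where 46.1% of all genes passed the test (22.1% higher and 24% lower), and none differed by more than 2-fold, where 15% of all genes did. The values of the 2 groups did not overlap for any of the 8 genes, beside 62.9% of all genes. The median log2 fold change of the 8 was 0.64, beside -0.01 over all genes. *S100a6* was 1.75-fold higher in Pear1-/- bleo (log2 fold change 0.79, standard error 0.083, adjusted p = 2.5e-07), *S100a4* 1.69-fold higher (0.75, standard error 0.18, adjusted p = 0.00178), *S100a11* 1.55-fold higher (0.62, standard error 0.088, adjusted p = 1.02e-05) and *S100a10* 1.38-fold higher (0.45, standard error 0.11, adjusted p = 0.00178). *S100a13* was 1.23-fold lower (-0.31, standard error 0.092, adjusted p = 0.00899). This call was lost on leaving out Pear1-/- bleo replicate 1 (adjusted p = 0.057) or 2 (0.0583), or WT bleo replicate 2 (0.0705). *S100a8* (0.90, standard error 0.43, adjusted p = 0.123), *S100a9* (0.65, standard error 0.51, adjusted p = 0.332) and *S100a1* (-0.20, standard error 0.099, adjusted p = 0.107) did not pass. Their standard errors come from one spread shared by all 4 groups. Without WT vehicle replicate 2, which is in neither group, all 8 passed, with *S100a8* at 0.89 (adjusted p = 1.08e-05), *S100a9* at 0.64 (adjusted p = 2.46e-08) and *S100a1* at -0.21 (adjusted p = 0.0259), and 49.2% of all genes then passed. A fit of the 2 bleo groups alone also gave 8, where 66% of all genes tested in it passed. Of the 12 neutrophil genes, 1 was higher in Pear1-/- bleo than in WT bleo (*Mmp8*, a collagenase, 1.31, adjusted p = 0.00851) and 11 did not pass, with a median of 0.61. *Csf3r* was at -0.23, *Cxcr2* at -0.03 and *Ltf* at -0.36. The list's summed level was between 152.6 and 161.7 CPM in WT bleo and between 222.1 and 231.9 in Pear1-/- bleo, where *Lcn2* had means of 50 and 79 CPM, *Mmp8* of 19.6 and 48.6 and *Mmp9* of 9.98 and 22.6. The part of these cells in the values of *S100a8* and *S100a9* was not tested. The interaction of genotype and bleomycin passed the test for 4 of the 8 genes, 3 higher and 1 lower, where 37.1% of all genes passed (17.8% higher and 19.3% lower). *S100a4* alone was also past 2-fold, where 15.5% of all genes were. Without WT vehicle replicate 2 the interaction passed for 6 of the 8, 2 higher and 4 lower, where 46.4% of all genes passed.

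Between Pear1-/- vehicle and WT vehicle 0 of the 8 genes passed the test with edgeR, where 7.24% of all genes did (1.95% higher and 5.29% lower), and 0 were also past 2-fold, where 3.32% of all genes were. DESeq2 and limma also gave 0, and 3 of the 8 had an unadjusted p under 0.05 in edgeR, as did 31.4% of all genes. The groups overlapped for all 8 genes, beside 19.2% of all genes that did not overlap. The median log2 fold change was 0.23, beside -0.004 over all genes. *S100a9* had the largest value, 1.04 (standard error 0.49, adjusted p = 0.184), and *S100a8* the next, 0.93 (standard error 0.41, adjusted p = 0.164). Without a filter on low counts 3 of the 8 passed, while the count over all genes went from 1261 to 5676, with more genes tested. Without WT vehicle replicate 2, 6 of the 8 were higher in Pear1-/- vehicle, where 55.3% of all genes passed. *S100a9* was then at 2.099 (standard error 0.077, adjusted p = 2.33e-20), *S100a8* at 1.78 (standard error 0.10, adjusted p = 8.68e-09), *S100a10* at 0.52 (adjusted p = 8.39e-10), *S100a11* at 0.43 (adjusted p = 1.3e-07), *S100a6* at 0.38 (adjusted p = 3.16e-06) and *S100a13* at 0.34 (adjusted p = 0.0026). *S100a4*, at -0.69 (adjusted p = 0.0775), and *S100a1*, at 0.21 (adjusted p = 0.0621), did not pass there. WT vehicle was then left with 2 libraries.

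**Figure D4:**
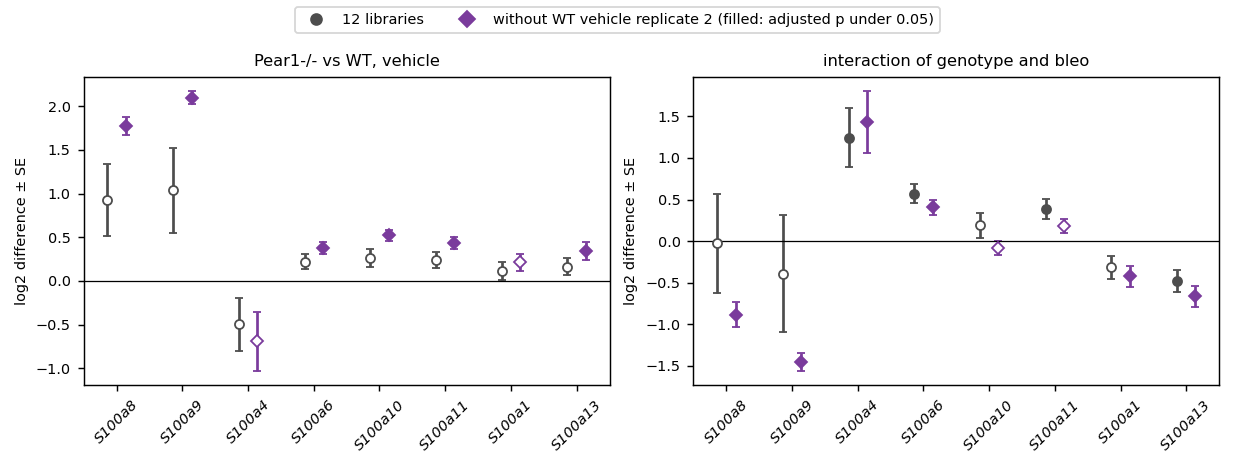
Log2 difference with its standard error for each S100 gene, between Pear1-/- vehicle and WT vehicle (left) and as the interaction of genotype and bleo (right), from all 12 libraries (circles) and without WT vehicle replicate 2 (diamonds); filled points passed the test. Leaving out this library moved *S100a9* from 1.04 to 2.099 on the left and from -0.39 to -1.46 on the right, while *S100a4* was positive on the right either way.

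Partners of S100 proteins were read from lists drawn up from their known binding. Of 8 annexins, calcium-dependent membrane-binding proteins, 4 were higher and 3 lower in WT bleo than in WT vehicle (median log2 fold change 0.16), and 5 were higher and 3 lower in Pear1-/- bleo than in Pear1-/- vehicle (median 0.38), where 67.9% and 62.2% of all genes passed. *Anxa2*, the partner of *S100a10*, had 4247 ± 324 normalized counts (SD, n = 3) in the WT vehicle libraries, with 4535 ± 295 in those of Pear1-/- vehicle, 4607 ± 114 in those of WT bleo and 6887 ± 114 in those of Pear1-/- bleo. Like *S100a10* it did not pass in WT (0.13, standard error 0.068, adjusted p = 0.0986) and was higher in Pear1-/- bleo than in WT bleo (0.57, adjusted p = 1.27e-06). *Anxa2* rose in Pear1-/- (0.61, standard error 0.068, adjusted p = 3.13e-07), where the smaller rise of *S100a10* (0.26) did not hold in all alternative settings. There were between 0.431 and 0.449 *S100a10* reads per *Anxa2* read in Pear1-/- vehicle and between 0.335 and 0.356 in Pear1-/- bleo, without overlap. The ratio was between 0.341 and 0.446 in WT vehicle and between 0.359 and 0.398 in WT bleo. *Anxa1*, the partner of *S100a11*, rose by 0.58 in WT (adjusted p = 1.79e-07) and by 1.17 in Pear1-/- (adjusted p = 1.06e-11), with an interaction of 0.59 (adjusted p = 3.99e-05). *Anxa3* went the other way between genotypes: it rose by 1.96 in WT and 1.19 in Pear1-/- and was lower in Pear1-/- bleo than in WT bleo (-0.83, adjusted p = 3.35e-09).

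Of 7 genes for receptors of released S100 proteins, 3 were higher and 2 lower in WT bleo, and 3 higher and 3 lower in Pear1-/- bleo, with medians of 0.05 and -0.04, beside the same 67.9% and 62.2% of all genes. *Ager*, which encodes RAGE and is known as a gene of alveolar type 1 epithelial cells, had 696.4 ± 76.9 normalized counts (SD, n = 3) in the WT vehicle libraries, with 567.5 ± 63.8 in those of Pear1-/- vehicle, 578.9 ± 18 in those of WT bleo and 263.2 ± 20.5 in those of Pear1-/- bleo. It fell in WT (-0.25, adjusted p = 0.0227) and further in Pear1-/- (-1.10, adjusted p = 1.5e-08; interaction -0.85, adjusted p = 7.72e-05). Of 6 epithelial genes, 2 were higher and 4 lower in WT bleo than in WT vehicle, where 31.4% of all genes were higher and 36.5% lower. In Pear1-/- bleo 1 was higher and 5 lower than in Pear1-/- vehicle, where 29.1% of all genes were higher and 33.1% lower. Between the bleo groups the surfactant genes *Sftpc* (-2.002) and *Sftpb* (-1.46) and *Epcam* (-0.30) were lower in Pear1-/-, *Cdh1* was higher (0.40), and *Krt8* (0.06) and *Krt18* (-0.07) did not pass. In that comparison 22.1% of all genes were higher and 24% lower. The list was not drawn up for type 1 cells, and the part of epithelial cells in the values of *Ager* was not tested. *Tlr4* rose by 0.27 in WT (adjusted p = 0.0348), and in Pear1-/- it was at -0.04 (adjusted p = 0.75). *Cd36*, a scavenger receptor of macrophages and endothelial cells, rose by 0.60 in WT (adjusted p = 6e-06) and fell in Pear1-/- (-0.58, adjusted p = 1.08e-05), with an interaction of -1.18 (adjusted p = 4.79e-07).

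Of 10 intracellular partners, 7 were higher and 2 lower in WT bleo (median 0.45) and 6 higher and 3 lower in Pear1-/- bleo (median 0.29), beside 67.9% and 62.2% of all genes that passed. Between the bleo groups 2 were higher and 1 lower in Pear1-/-, beside 46.1% of all genes. *Tpm1*, a tropomyosin of actin filaments, rose by 0.64 in WT (adjusted p = 2.26e-07) and by 1.95 in Pear1-/- (adjusted p = 4.43e-14). *Cacybp*, the calcyclin-binding protein named for *S100a6*, rose by 0.25 in WT (adjusted p = 0.0316) and 0.46 in Pear1-/- (adjusted p = 0.000513), and was higher in Pear1-/- bleo than in WT bleo (0.35, adjusted p = 0.00687). *Atp2a2*, the calcium pump bound by S100A1, rose by 0.98 in WT (adjusted p = 1.85e-08) and 0.24 in Pear1-/- (adjusted p = 0.0237) and was lower in Pear1-/- bleo than in WT bleo (-0.48, adjusted p = 0.000175). *Ryr2*, the ryanodine receptor, passed as lower with bleomycin in WT (adjusted p = 1.07e-05) and in Pear1-/- (adjusted p = 0.000104), from between 26 and 116 reads in vehicle libraries to between 0 and 4 in bleo libraries, too few for a fold change. *Fgf1*, the growth factor released with S100A13, fell in WT (-1.09, adjusted p = 6.2e-07) and in Pear1-/- (-0.98, adjusted p = 2.7e-06), with an interaction of 0.10 (standard error 0.19, adjusted p = 0.705). *Il1a*, which encodes interleukin 1 alpha, rose by 0.66 in WT (adjusted p = 9.54e-05) and by 1.09 in Pear1-/- (adjusted p = 5.39e-07).

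**Figure D5:**
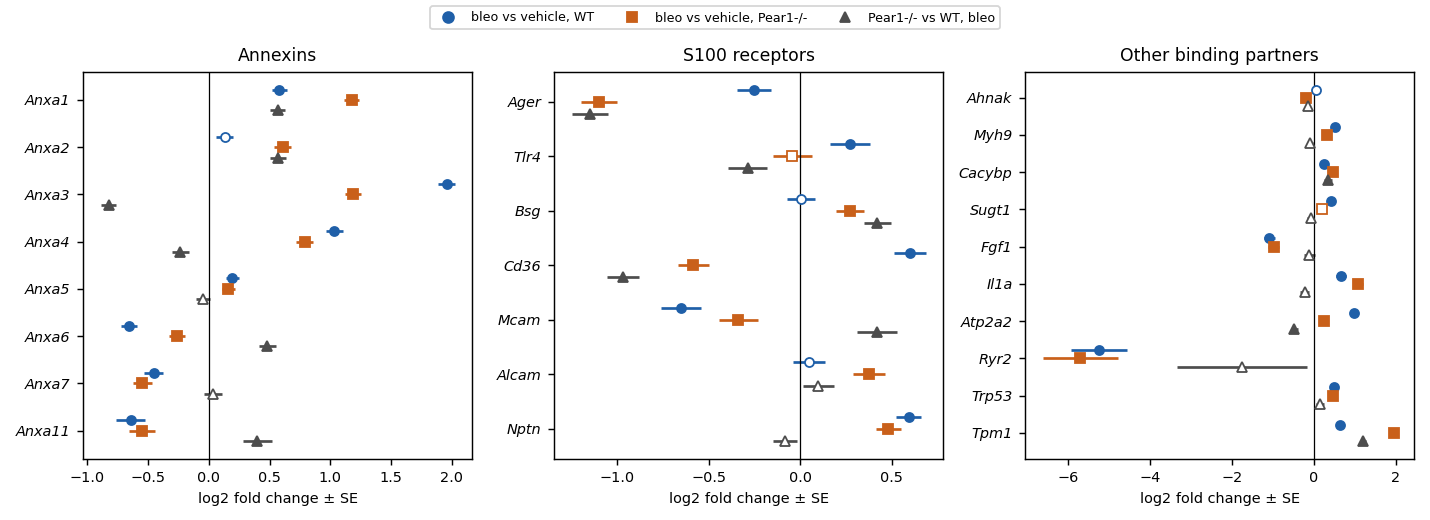
Log2 fold change with its standard error for 8 annexins, 7 receptors of S100 proteins and 10 other binding partners in 3 comparisons; filled points passed the test and open points did not. *Anxa1*, *Anxa2* and *Tpm1* were higher in Pear1-/- bleo than in WT bleo, and *Anxa3*, *Ager* and *Cd36* were lower.

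Of 10 other S100 genes listed, 5 passed the filter on low counts (*S100a7a*, *S100a14*, *S100a16*, *S100b* and *S100g*). In WT bleo 1 was higher and 3 were lower than in WT vehicle, and in Pear1-/- bleo 2 were higher and 2 lower than in Pear1-/- vehicle, beside 67.9% and 62.2% of all genes that passed. *S100a16*, the most abundant of them, had 561.4 ± 35.2 normalized counts (SD, n = 3) in the WT vehicle libraries, with 565.4 ± 9.65 in those of Pear1-/- vehicle, 341.8 ± 41.4 in those of WT bleo and 590.6 ± 8.87 in those of Pear1-/- bleo. It fell in WT (-0.70, standard error 0.085, adjusted p = 6.77e-07), was at 0.07 in Pear1-/- (adjusted p = 0.491) and had an interaction of 0.77 (adjusted p = 4.78e-05). *S100b*, known as a glial gene, rose in WT (1.44, standard error 0.27, adjusted p = 0.000133) and in Pear1-/- (1.46, standard error 0.24, adjusted p = 3.61e-05), at means between 11.9 and 47 normalized counts. *S100g*, a vitamin D-dependent calcium-binding protein, fell in WT (-1.81, standard error 0.34, adjusted p = 0.000139) and in Pear1-/- (-2.27, standard error 0.37, adjusted p = 3.18e-05).

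The likeness of patterns was measured as the root mean square difference of log2 CPM over the 12 libraries after centring each gene on its own mean. Among the 8 genes the closest pairs were *S100a6* and *S100a11* (0.0879), *S100a1* and *S100a13* (0.121) and *S100a8* and *S100a9* (0.212), and the most distant were *S100a4* and *S100a8* (2.91). With the 8 S100 genes left out of the candidates, among the 5284 genes whose mean log2 CPM reached 5, *Has1*, *Scara5* and *Ccl11* were nearest to *S100a8* (0.199, 0.222 and 0.252) and also to *S100a9* (0.199, 0.231 and 0.265). Genes below that level could not be ranked, among them the neutrophil genes *Ly6g*, *Cxcr2*, *Mpo*, *Elane* and *Camp*. *Has1*, a hyaluronan synthase, had 1073, 3183 and 1017 normalized counts in the WT vehicle libraries, with between 3038 and 3558 in those of Pear1-/- vehicle, between 235.9 and 266.3 in those of WT bleo and between 327.5 and 351.7 in those of Pear1-/- bleo, so WT vehicle replicate 2 was high for it as well. *Scara5*, a ferritin receptor, and *Ccl11*, the chemokine eotaxin, had 2590 and 1182 normalized counts in that library against between 469.4 and 1061 in the other WT vehicle libraries. The genes nearest to *S100a4* were *Ltbp2* (0.318), *Timp1* (0.33) and *Rab31* (0.367). *Timp1*, an inhibitor of matrix metalloproteinases, had between 319.1 and 431.6 normalized counts in vehicle libraries, between 1175 and 1243 in WT bleo and between 3411 and 3498 in Pear1-/- bleo. *Actn4*, an actin crosslinker (0.0537), *Pfkl*, a glycolytic enzyme (0.0843), and *Tubb6*, a tubulin (0.0957), were nearest to *S100a6* among those candidates. These distances are descriptions over libraries of 4 groups.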

How the data were processed

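Pdgfra+ cells were sorted from mouse lungs, cDNA was prepared by SMART-Seq v4, a full-length protocol that does not mark strand, and the authors aligned paired reads to GRCm38 with HISAT2. The authors deposited a count of reads per gene and, as a signal, the same counts divided by DESeq2 size factors (normalized counts). The annotation release, counting program and strand setting are not given in the sources used here. Counts were fitted with edgeR 4.0.16 (R 4.3.3): TMM normalization, filterByExpr by group, one mean per group, a robust quasi-likelihood fit, and Benjamini-Hochberg adjustment over 17418 genes. The standard error is the size of the log2 fold change divided by the square root of its F statistic. DESeq2 1.42.0, limma 3.58.1 (log2 of the normalized count plus 1), another scaling, no filter, fewer groups, a replicate block and leaving out each library were alternatives. The genes and lists were chosen with earlier results of these data known; all 8 S100 genes are described, other genes come from lists of partners and cell markers, and the 3 nearest genes are named for *S100a4*, *S100a6*, *S100a8* and *S100a9*. Libraries were grouped by label. The p-values measure only the spread between these libraries.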

Additional observations from a re-analysis of the deposited data

Results flagged for a closer look

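The change with bleomycin differed between genotypes, by the interaction term in edgeR, for 4 of the 8 S100 genes, where 37.1% of all genes passed. The interaction was 1.24 for *S100a4*, 0.57 for *S100a6* and 0.38 for *S100a11* on the log2 scale, a larger rise in Pear1-/-, and -0.48 for *S100a13*, a rise in WT with 0.04 in Pear1-/-. All 4 kept their direction in the 19 alternative settings, and *S100a11* lost its call in 11 of them. No formal outlier test was run, since groups held 3 libraries.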

How the results depend on the processing

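Over 792 refitted log2 fold changes of the 8 genes, 722 kept direction and call, 35 lost the call, 23 gained it and 12 reversed, none of them a change that had passed the test. Leaving out WT vehicle replicate 2 accounted for 13 of the 23 gained calls. With total count scaling, *S100a10* in WT was at -0.0106, *S100a1* between vehicle groups at -0.032 and the *S100a8* interaction at 0.078. On leaving out single libraries *S100a10* ranged from -0.0479 to 0.3256 in WT and from -0.0802 to 0.3123 in the interaction, *S100a13* in Pear1-/- from -0.0291 to 0.0646, *S100a1* in Pear1-/- from -0.0081 to 0.2401 and the *S100a8* interaction from -0.8845 to 0.2441, the extremes of *S100a8* being those without WT vehicle replicates 2 and 1.

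Counts of S100 genes that passed moved by over 1.5 times as follows. Between vehicle groups 0 became 3 without a filter and between 0 and 6 on leaving out single libraries, with 0 to 2 past 2-fold. Between bleo groups 5 became 8 when those groups alone were fitted (66% of all genes), and between 4 and 8 on leaving out single libraries. In the interaction 1 gene past 2-fold became 1 to 2. Over all genes, the count between vehicle groups was 1261, and 5676 without a filter, 33 with limma, 0 with only those groups, 2188 with total count scaling, 784 without the robust prior and between 0 and 11281 on leaving out single libraries. In WT 11834 became 19714 without a filter, where more genes were tested. Otherwise the cause was not tested. Total count scaling and the fit without the robust prior were chosen after seeing the data. Total count scaling moved the median of all genes between vehicle groups from -0.004 to -0.151 and in the interaction from -0.001 to 0.149.

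Without the robust prior *S100a8* passed between bleo groups (adjusted p = 0.0331) and *S100a10* in Pear1-/- did not (adjusted p = 0.051). Replicate numbers did not pair the libraries: of 18 same-numbered pairs 1 had deviations correlated above 0.1 (highest 0.103). With a replicate block 6, 6, 5, 0 and 4 S100 genes passed in WT, Pear1-/-, bleo, vehicle and the interaction, against 7, 6, 5, 0 and 4, the call lost being *S100a6* in WT (adjusted p = 0.0512). Over all genes the block gave 11680, 10708, 7815, 1256 and 6235. Depth limits *S100a4* most, with between 11 and 18 reads in vehicle libraries. With CPM from TMM in place of size factors the 32 group means moved by less than 1 SD.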

Other observations

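The other marker lists were summed in each library. Endothelial genes (4) had between 213.4 and 257.7 CPM in vehicle libraries and between 119.4 and 127.8 in bleo libraries. Mesothelial genes (4) had between 25.6 and 34 CPM in vehicle libraries, between 8.1 and 9.68 in WT bleo and between 13.2 and 15.3 in Pear1-/- bleo. The 4 genes shared by all leukocytes had between 1136 and 1600 CPM in vehicle libraries, between 3810 and 3897 in WT bleo and between 1933 and 1983 in Pear1-/- bleo. T cell genes (4) had between 76.5 and 117.4 CPM in vehicle libraries and between 38.9 and 58.2 in bleo libraries. B cell genes (4) had between 393.7 and 736.3 CPM in vehicle libraries, between 668.6 and 681.1 in WT bleo and between 483.6 and 503.3 in Pear1-/- bleo. The 6 epithelial genes had between 1950 and 2769 CPM in vehicle libraries, between 1009 and 1034 in WT bleo and between 341.1 and 356.9 in Pear1-/- bleo, and *Sftpc* and *Sftpb* together made up most of the bleo sums, with means of 725.9 and 213.9 CPM in WT bleo and 181.2 and 77.7 in Pear1-/- bleo. The 8 fibroblast genes had between 16810 and 19310 CPM in vehicle libraries, between 12530 and 12640 in WT bleo and between 32570 and 33550 in Pear1-/- bleo, most of it from the 3 collagen genes in the bleo libraries (means of 4822, 2642 and 3643 CPM for *Col1a1*, *Col1a2* and *Col3a1* in WT bleo and 16000, 7164 and 8128 in Pear1-/- bleo).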
